A study of Mus musculus with 6 samples.

Results

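Resting regulatory T cells (Treg) are the cells that the deposited annotation of CD4 T cell subsets calls Resting Treg. They were found by matching the barcodes with that name to the table of counts, which gave 266 distinct cells of 7300 in the whole series and of 2564 CD4 T cells. The deposited tables list 347 such rows, but 81 of them repeat another row with the same barcode and identical counts. In all, 2127 of the 9427 deposited rows, each from 1 well of pool LN, were such repeats, and each distinct cell was counted once here. CD4+ Naive T (1703 distinct cells) and the other Treg subset, called Act. Treg (155 distinct cells), were used for comparison.

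Cells came from pregnant dams mated to BALB/c males, given diphtheria toxin for the first 9 days of pregnancy and killed at embryonic day 9.5. The Aire-DTR group was 4 mice (numbered 4, 7, 8 and 36) whose Aire-expressing cells carry the diphtheria toxin receptor. The WT group was 3 mice (1, 6 and 97) without the receptor that received the same toxin. By the phenotype column of the deposited cell table, Aire-DTR mice 7, 8 and 36 had pregnancies with IUGR and the pregnancy of mouse 4 was resorbed. Each mouse gave a uterine-draining lymph node sample (udLN) and a brachial lymph node sample (brLN), the brachial node being one that does not drain the uterus. Mice were loaded as 3 pools: Aire-DTR mouse 8 with WT mouse 6 in pool 1, Aire-DTR mouse 36 with WT mouse 97 in pool 2, and Aire-DTR mice 4 and 7 with WT mouse 1 in pool LN. Droplet-based sequencing counted transcripts as unique molecular identifiers (UMIs). The mouse is the replicate throughout.

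Treg restrain other lymphocytes and are set apart by the transcription factor Foxp3. Resting Treg circulate through lymph nodes much as naive T cells do, entering through the homing receptor Ccr7 and depending on interleukin-2, which they bind through a high-affinity receptor whose alpha chain is Il2ra. Activated Treg give up part of the homing program and gain receptors and enzymes used in tissues. In pregnancy, Treg are known for their part in maternal tolerance of paternal antigens.

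The 266 cells held 741205 UMIs, with a median of 2586 UMIs per cell (range 825 to 7581), against a median of 2763 in Act. Treg and 2903 in naive cells. By mouse, Aire-DTR mice 4, 7, 8 and 36 gave 38, 12, 4 and 22 resting Treg from udLN and 21, 40, 14 and 27 from brLN. WT mice 1, 6 and 97 gave 14, 9 and 3 from udLN and 25, 6 and 31 from brLN. A sum over such a group held 9113 to 112310 UMIs, so single genes of low level were not measured well in any one mouse.

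Levels of the label's markers are given here as a description and not as a check of the label, because the clusters were made from these genes. Foxp3 (chrX:7573644-7595245, GRCm38, GENCODE annotation) was at 402, 237, 476 and 551 UMIs per 1000000 UMIs of the same sum (CPM) in the resting Treg of Aire-DTR mice 4, 7, 8 and 36, and at 481, 546 and 669 CPM in those of WT mice 1, 6 and 97. In naive cells it lay between 2.08 and 12.4 CPM over the 7 mice, below every resting Treg value. Il2ra (chr2:11642807-11693193), the interleukin-2 receptor alpha chain, was at 310, 380, 799 and 360 CPM in the resting Treg of Aire-DTR mice 4, 7, 8 and 36, and at 422, 670 and 545 CPM in those of WT mice 1, 6 and 97. Naive cells had 3.15 to 8.31 CPM of Il2ra.

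Ccr7 (chr11:99144196-99155077), the chemokine receptor for entry into lymph nodes, took a middle place. It averaged 390 ± 78.5 CPM in resting Treg, 192 ± 90.1 in Act. Treg and 632 ± 52.3 in naive cells (SD, n = 7 mice). It was lower in resting Treg than in naive cells in 7 of 7 mice. In the 6 mice with at least 10 Act. Treg it was higher in resting than in Act. Treg in 6 of 6.

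A UMI of Foxp3 was seen in 55.3% of resting Treg (147 of 266; 95% Wilson interval 49.3% to 61.1%), in 57.4% of Act. Treg, in 1.23% of naive CD4 cells and in 0.176% of B cells, which should lack it. With each cell thinned to 1000 UMIs, which left out 3 resting and 23 naive cells, these shares were 33.8% in resting Treg, 36% in Act. Treg, 0.714% in naive cells and 0.0906% in B cells. A UMI of Il2ra was likewise seen in 55.3% of resting Treg and in 1.59% of naive cells. At least 1 of Foxp3 and Il2ra was detected in 209 of the 266 cells, and both were in 85. A UMI of Ccr7 was seen in 52.3% of resting Treg and 76.7% of naive cells.

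Resting Treg with no Foxp3 UMI carried the other Treg genes, which is also a description, as the clusters were made from these genes. Of these 119 cells, 96 (80.7%) had UMIs of at least 2 of Il2ra, Ikzf2, Ctla4, Tnfrsf18 and Izumo1r, against 125 of 147 (85.0%) resting Treg with a Foxp3 UMI and 122 of 1682 (7.25%) naive cells without one. Their median depth was 2448 UMIs, against 2665 in resting Treg with a Foxp3 UMI. Only 6 of 266 resting Treg had a UMI of none of the 6 genes, against 1001 of 1703 naive cells. The broader deposited annotation put 257 of the 266 cells in its CD4+ Treg class and 9 in CD4+ Mem T, and 4 of those 9 had a Foxp3 UMI and 8 a Ccr7 UMI.

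**Figure D1:**
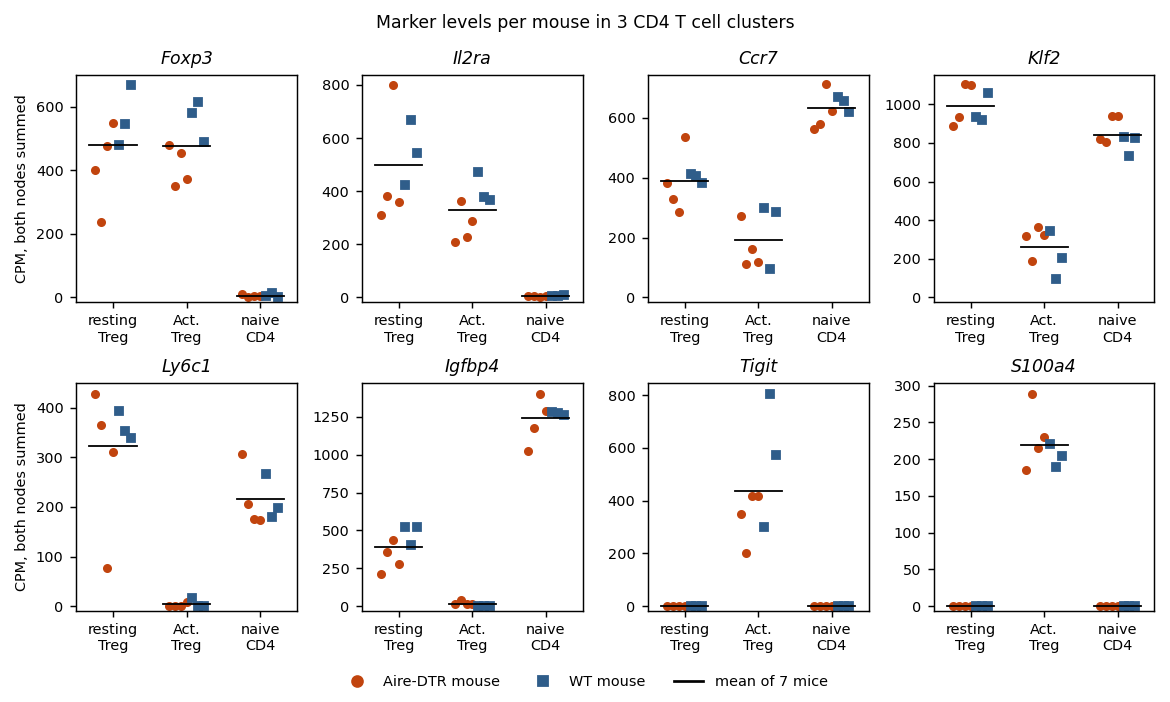
CPM of 8 genes (vertical axes, UMIs of both nodes summed per mouse) in resting Treg, Act. Treg and naive CD4 T cells; each circle is an Aire-DTR mouse, each square a WT mouse and each bar the mean of 7 mice. Foxp3 and Il2ra were near 0 in naive cells, Ccr7 and Klf2 stood above Act. Treg on average, and Tigit and S100a4 were at 0 in the resting Treg of every mouse.

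Set against naive CD4 T cells of the same mouse, genes of Treg identity led those higher in resting Treg, among genes at 100 CPM or more in the higher cluster. A gene was called here when its mean ratio over mice was at least 2-fold (10 CPM added on both sides) and its sign was the same in all 7 mice. This is a description with no test, because the clusters were made from these genes. Of 10181 genes with at least 10 UMIs, 95 were higher in resting Treg (0.933%) and 96 lower (0.943%), and the median log2 ratio over all genes was -0.08. With 1 CPM added instead, 139 were higher and 251 lower, and with cells thinned to 1000 UMIs, 54 were higher and 174 lower. At 3-fold 53 genes were called and at 1.5-fold 424, so the rule and the depth set how many are counted. Among the 191 called genes were 6 V segments of antigen receptors and 6 predicted genes, which are counted and not named.

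Genes of Treg identity were higher for 15 of the 18 measured members of a list of 20, with a median log2 ratio of 3.11. Foxp3 averaged 480 CPM in resting Treg and 5.49 in naive cells (log2 ratio 4.96 ± 0.54, SD, n = 7 mice). Ikzf2 (Helios), a transcription factor that stabilises Treg, averaged 290 CPM in resting Treg and 3.48 in naive cells. Ctla4, the inhibitory receptor that removes costimulatory ligands from antigen-presenting cells, averaged 239 CPM in resting Treg and 12.7 in naive cells. Izumo1r, the folate receptor FR4 used to sort mouse Treg, averaged 806 CPM in resting Treg and 134 in naive cells, where it was thus also well above 0. The TNF receptor family members Tnfrsf4 (OX40) and Tnfrsf18 (GITR) had log2 ratios of 3.73 ± 0.30 and 2.00 ± 0.33. Capg, an actin filament capping protein, and Gpr83, a receptor enriched in Treg, had log2 ratios of 3.19 ± 0.30 and 3.17 ± 0.55. Further members were higher from low levels: Lrrc32 (GARP, which presents latent TGF beta) averaged 83.4 CPM in resting Treg and 0.589 in naive cells, and Nrp1 averaged 70.9 CPM in resting Treg and 1.65 in naive cells.

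Receptor and feedback genes of interleukin-2 signalling formed the second group. Of 14 measured members of the list of the interleukin-2 receptor and STAT5, 6 were higher in resting Treg and none lower. Besides Il2ra these were Il2rb, the receptor's beta chain, at 499 CPM in resting Treg and 19.1 in naive cells, and Cish, a STAT5-induced inhibitor of cytokine receptors, at 180 CPM in resting Treg and 13.1 in naive cells. Socs2 averaged 119 CPM in resting Treg and 1.64 in naive cells, Socs1 averaged 270 CPM in resting Treg and 97.4 in naive cells, and the kinase gene Pim1 averaged 332 CPM in resting Treg and 77.2 in naive cells. Il2ra, Il2rb and Socs2 are also on the Treg identity list. Outside both lists, Rgs1, a brake on G-protein-coupled chemokine receptors, averaged 443 CPM in resting Treg and 10.5 in naive cells.

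Genes of the resting and naive state did not move together. None of the 18 measured members was called higher and 5 were called lower in resting Treg. Tcf7 (TCF1), a transcription factor of naive and memory T cells, averaged 130 CPM in resting Treg and 426 in naive cells, and its partner Lef1 averaged 266 CPM in resting Treg and 628 in naive cells. Il7r, the interleukin-7 receptor alpha chain used for survival by naive cells, had a log2 ratio of -1.02 ± 0.60. Igfbp4 averaged 390 CPM in resting Treg and 1244 in naive cells, and Dapl1 25.4 CPM in resting Treg and 261 in naive cells. By contrast Klf2, the transcription factor that drives S1pr1, averaged 991 CPM in resting Treg and 842 in naive cells and had a log2 ratio of 0.23 ± 0.08. S1pr1, the receptor for exit from lymph nodes, had a log2 ratio of -0.10 ± 0.20, and of the 14 measured genes of homing and egress none was called in either direction.

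Counts for other lists are read beside the share over all genes, of which 0.933% were called higher and 0.943% lower than in naive cells. At that share a list of this size with 0 or 1 member called does not stand out. Of the T cell receptor and coreceptor list 0 of 15 measured members were called in either direction (median log2 ratio -0.19), and of glycolysis 0 of 15 (median 0.10). The interferon list had 1 of 22 called, Isg20, an antiviral exonuclease, which was higher (log2 ratio 1.21), with a list median of 0.19. Of 19 measured activated and effector Treg genes 3 were higher, namely Maf, a transcription factor, Itgb1, an integrin chain, and Lgals1 (galectin-1), and 0 were lower (list median 0.70). The suppression list had 4 of 8 higher: Entpd1 (CD39), which breaks down extracellular ATP, with Ctla4, Lgals1 and Lrrc32 (list median 1.01).

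Among genes at 100 CPM or more in the higher cluster, the lowest against naive cells was Pdlim4 (chr11:54054928-54069014), which codes for a PDZ and LIM domain protein. It had 1 UMI in all resting Treg and averaged 102 CPM in naive cells. Cd40lg, the CD40 ligand by which helper T cells stimulate B cells, averaged 34.6 CPM in resting Treg and 154 in naive cells. Rflnb, Mettl9, Rgcc, Gtf2i and Emb completed the 10 lowest, with log2 ratios between -2.31 and -1.44. Cd4 itself was lower in 7 of 7 mice without passing 2-fold, at 118 ± 49.4 CPM in resting Treg and 222 ± 35.0 CPM in naive cells.

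Act. Treg of the same mouse differed from resting Treg most in activation genes that resting Treg lacked or held at low level. Of 8043 genes with at least 10 UMIs, 74 were higher in resting Treg (0.92%) and 246 lower (3.06%) in all of 6 mice, 251 resting and 148 Act. Treg cells, with a median log2 ratio of -0.13. Mouse 6 had under 10 Act. Treg and was left out. Markers of other cells moved with this comparison in the same 6 mice. The summed B cell list was at 304 to 567 CPM in resting Treg and 928 to 2384 CPM in Act. Treg, and the follicular helper T cell list at 133 to 237 CPM in resting Treg and 295 to 764 CPM in Act. Treg. The ranges of the other lists overlapped: 30.9 to 105 CPM in resting Treg and 75.3 to 179 CPM in Act. Treg for natural killer genes, 13.2 to 49.1 CPM in resting Treg and 0 to 306 CPM in Act. Treg for Th17 genes, and 380 to 565 CPM in resting Treg and 443 to 775 CPM in Act. Treg for myeloid genes. The part of these markers in the counts was not tested. With cells thinned to 1000 UMIs, 77 were higher and 126 lower.

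Of the list of activated and effector Treg genes, 20 of 29 measured members were lower in resting Treg and none was higher, with a median log2 ratio of -2.51. Tigit, an inhibitory receptor, had 0 UMIs in resting Treg, which allows a share of up to 1.13% of cells with a UMI, and averaged 376 CPM in Act. Treg. S100a4, a calcium-binding protein of migrating cells, also had 0 UMIs in resting Treg and averaged 224 CPM in Act. Treg. The costimulatory receptor gene Icos averaged 46.1 CPM in resting Treg and 716 in Act. Treg. Ccr8, a chemokine receptor of tissue Treg, averaged 6.80 CPM in resting Treg and 205 in Act. Treg. Tnfrsf9 (4-1BB) averaged 17.04 CPM in resting Treg and 446 in Act. Treg, and Lag3, an inhibitory receptor for MHC class II, averaged 5.01 CPM in resting Treg and 149 in Act. Treg. S100a6, Il1r2, Cd83 and Glrx were the others of the 10 lowest at 100 CPM or more. Klrg1, Il10 and the proliferation marker Mki67 had 0 UMIs in resting Treg as well, but were seen in at most 6.45% of Act. Treg, so the depth shows less for them.

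Several genes of the resting and naive list were higher in resting than in Act. Treg. Of its 17 measured members, 7 were called higher and none lower. Klf2 averaged 1003 CPM in resting Treg and 290 in Act. Treg, and S1pr1 254 CPM in resting Treg and 86.9 in Act. Treg. The homing and egress list had 3 of 13 measured members higher and 1 lower, the integrin gene Itgal. Bcl2, the survival factor, averaged 400.4 CPM in resting Treg and 109 in Act. Treg, but the Bcl2 family list had 1 of 11 measured members higher (Bcl2) and 3 lower (Bcl2l1, Bcl2a1b and Bcl2a1d), with a median log2 ratio of -0.37. Ly6c1, a surface protein that marks less activated Treg in mice, had the highest ratio, at 319 CPM in resting Treg and 4.04 in Act. Treg, and Igfbp4 followed with 388 CPM in resting Treg and 13.2 in Act. Treg. Treml2, Slc17a9, Tsc22d3, Pdlim1 and Dph5 were also among the 10 highest, with log2 ratios between 1.61 and 2.10. Reads of Ly6c1 could be shared with its near-identical neighbour Ly6c2, so its level is uncertain. A Ly6c1 UMI was seen in 87 of the 266 cells.

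Foxp3 did not separate the Treg subsets. It averaged 469 CPM in resting Treg and 456 in Act. Treg over the 6 mice, a log2 ratio of -0.0044 ± 0.43, with 3 of 6 mice on each side. Il2ra had a log2 ratio of 0.51 ± 0.67 and Cish one of 0.29 ± 0.68. The Treg genes Ikzf2, Ctla4, Tnfrsf18 and Tnfrsf4 were called lower in resting than in Act. Treg, with log2 ratios of -1.51, -1.51, -1.02 and -2.08. Of the 13 measured genes of the antigen receptor signal list, 4 were lower and none higher, among them Egr2, with 0 UMIs in resting Treg, and Irf4, at 3.35 CPM in resting Treg and 101 in Act. Treg.

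**Figure D2:**
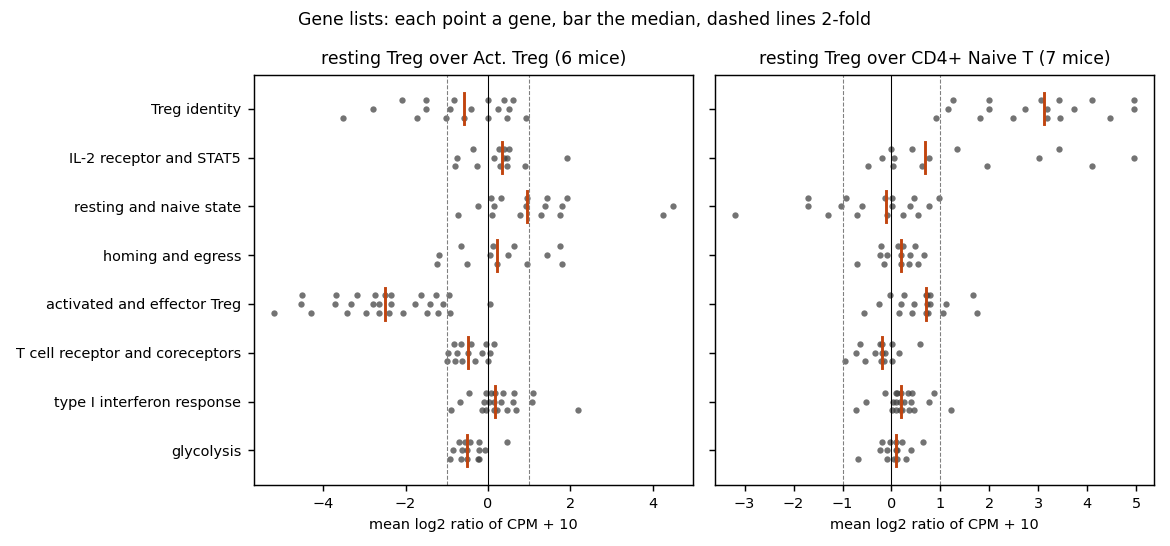
Mean log2 ratio of CPM + 10 (horizontal axes) of the genes of 8 lists, in resting Treg over Act. Treg (left, 6 mice) and over naive CD4 T cells (right, 7 mice); a point is a gene, the bar the list's median and the dashed lines 2-fold. The Treg identity list has its median at 3.11 over naive cells and the effector list at -2.51 over Act. Treg.

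Markers of other cell types were present in resting Treg at levels that differed by list. The summed B cell list was at 304 to 567 CPM over the 7 mice in resting Treg and 264 to 419 CPM in naive cells. Most of it was Ighm, an immunoglobulin heavy chain, with UMIs in 131 of the 266 cells, and Cd74, the MHC class II invariant chain, in 52, while Cd79a, part of the B cell receptor, had UMIs in 6. The summed myeloid list was at 335 to 565 CPM in resting Treg, above every value in naive cells, which had 298 to 331 CPM. In that list the lysosomal protease gene Ctss had UMIs in 162 resting Treg and Cst3 in 73, Lyz2 in 3, and Csf1r and Itgam in 0. Of natural killer genes, Nkg7 and Prf1 had UMIs in 13 cells each, and Ncr1 and Klrb1c in 0, with the summed list at 30.9 to 105 CPM in resting Treg and 42.0 to 65.1 CPM in naive cells. The Th17 list was at 13.2 to 49.1 CPM in resting Treg and 0 to 12.6 CPM in naive cells, and the follicular helper list at 88.1 to 237 CPM in resting Treg and 72.3 to 139 CPM in naive cells. The gamma delta list was at 0 to 35.9 CPM in resting Treg and 0 to 6.99 CPM in naive cells, and the erythroid list at 0 to 2267 CPM in resting Treg and 6.99 to 1399 CPM in naive cells. The part of these markers in the results was not tested. Cd8b1, a CD8 chain, had a UMI in 11.7% of resting Treg, 8.75% of naive CD4 cells and 98.6% of CD8+ Naive T. The 2 CD8 genes together reached 277 and 247 CPM in the resting Treg of Aire-DTR mice 4 and 36, against 28.7 to 70.5 CPM in those of the other 5 mice, and their part in the results by genotype was not tested. Resting Treg and naive cells with a UMI of Cd79a, Cd79b, Ms4a1, Cd8a or Cd8b1 were then left out, 51 of them resting Treg. Without them, 102 genes were higher and 125 lower than in naive cells over the 6 mice that had enough cells.

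Resting Treg were a minor part of CD4 T cells in every mouse, with no detectable difference between genotypes or nodes. In udLN the share was 13.0%, 9.92%, 4.65% and 14.2% in Aire-DTR mice 4, 7, 8 and 36, and 9.03% and 16.4% in WT mice 1 and 6. WT mouse 97 had only 9 CD4 T cells in udLN, below the minimum of 20, and was left out there. Its share was 33.3%, and with it the udLN means were 10.4% in Aire-DTR mice and 19.6% in WT mice, a difference of -9.14 points (exact permutation p = 0.286). In brLN the share was 8.54%, 9.48%, 15.4% and 7.83% in Aire-DTR mice 4, 7, 8 and 36, and 9.40%, 7.14% and 13.1% in WT mice 1, 6 and 97. The groups overlapped in both nodes. Within pools the brLN direction was not the same: 15.4% in the Aire-DTR mouse and 7.14% in the WT mouse of pool 1, and 7.83% in the Aire-DTR mouse and 13.1% in the WT mouse of pool 2.

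The mean share in udLN was 10.4% ± 4.25 in Aire-DTR mice (SD, n = 4) and 12.7% ± 5.18 in WT mice (n = 2; exact two-sided permutation p = 0.667). In brLN it was 10.3% ± 3.45 in Aire-DTR mice (n = 4) and 9.89% ± 3.03 in WT mice (n = 3; exact permutation p = 0.8). With both nodes summed, Aire-DTR mice were at 10.95%, 9.58%, 10.2% and 9.80% and WT mice at 9.26%, 10.8% and 13.9%, which overlap (exact permutation p = 0.514). Over the 6 mice with enough cells in both nodes the share averaged 11.2% in udLN and 9.63% in brLN, with the udLN higher in 4 of 6 (exact sign-flip permutation p = 0.594). These designs cannot give a p below 0.133 in udLN, 0.0571 in brLN and 0.0312 between nodes. After adjustment over the 6 comparisons of shares, all were at p = 0.8 in these exact permutation tests.

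Among Treg, that is resting and Act. Treg together, resting cells were the larger part in most samples. In brLN they were 58.3%, 74.1%, 66.7% and 55.1% of Treg in Aire-DTR mice 4, 7, 8 and 36, and 73.5% and 73.8% in WT mice 1 and 97. WT mouse 6 had 9 Treg there, below the minimum of 20, and was left out, with a share of 66.7%. The mean was 63.5% ± 8.55 in Aire-DTR mice (n = 4) and 73.7% ± 0.198 in WT mice (n = 2), with Aire-DTR mouse 7 above both WT mice (exact permutation p = 0.4). In udLN, Aire-DTR mice 4, 7 and 36 had 66.7%, 60.0% and 61.1%, and WT mouse 1, the one WT mouse with at least 20 Treg there, had 50% (exact permutation p = 0.5, the smallest it allows). Over the 4 mice with enough Treg in both nodes the share averaged 59.4% ± 6.94 in udLN and 65.3% ± 9.95 in brLN (exact sign-flip permutation p = 0.625). With both nodes summed the share of Treg was 59.7% ± 9.70 in Aire-DTR mice (n = 4) and 67.8% ± 4.73 in WT mice (n = 3; exact permutation p = 0.286). The exact permutation tests of the share of Treg cannot give a p below 0.133 in brLN, 0.125 between nodes and 0.0571 with nodes summed.

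**Figure D3:**
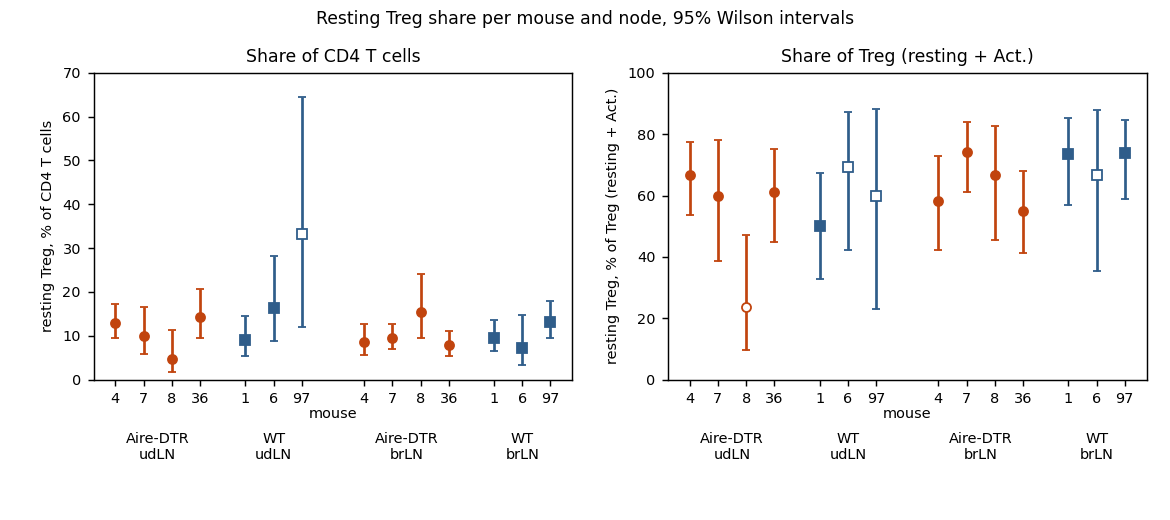
Resting Treg as a percentage of CD4 T cells (left) and of resting plus Act. Treg (right) in each mouse and node, with 95% Wilson intervals that cover counting error; circles are Aire-DTR mice, squares WT mice, and open symbols samples with under 20 cells in the denominator. The genotypes overlapped in each node among the samples of CD4 T cells, and the intervals of single samples were wide.

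Gene levels in resting Treg were compared between genotypes within each node, on UMIs summed per mouse where a sum had at least 10 cells, with edgeR's quasi-likelihood test and pool as a term. In brLN, 4 Aire-DTR mice stood against WT mice 1 and 97. Aire-DTR mouse 8 was alone in its pool there and adds nothing to the genotype difference with pool as a term. The brLN comparison thus rests on Aire-DTR mice 4, 7 and 36 against those 2 WT mice. Of 1629 genes, 7 passed an adjusted p of 0.05 (0.43%), 3 higher and 4 lower in Aire-DTR mice, and 76 had an unadjusted p below 0.05. DESeq2 called 0, with 6 at an unadjusted p below 0.05. Of the 7, 6 were V segments of the T cell receptor, each with UMIs in 9 to 31 of the 266 cells, and 1 was Hbb-bs, a beta-globin gene. In udLN, where only Aire-DTR mice 4, 7 and 36 and WT mouse 1 had enough cells, 1 of 969 genes passed (0.103%), a V segment. With pool as a term, that comparison rests on Aire-DTR mice 4 and 7 against WT mouse 1.

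Hbb-bs was at 20.5, 0, 658 and 514 CPM in brLN resting Treg of Aire-DTR mice 4, 7, 8 and 36, and at 0, 416 and 1272 CPM in those of WT mice 1, 6 and 97. The level moved with the pool, and the pool's part in it was not tested. The summed erythroid list was at 0 to 13.2 CPM in the 3 mice of pool LN, and at 740 to 2267 CPM in the 4 mice of pools 1 and 2. Within pool, the fitted log2 difference of -1.23 (SE 0.33, edgeR adjusted p = 0.0431) rests on Aire-DTR mouse 36 against WT mouse 97, and it was 2.19 without mouse 36 (edgeR adjusted p = 0.989). A Hbb-bs UMI was seen in 34.6% of resting Treg, 31.6% of naive CD4 cells and 39.7% of B cells. Hbb-bs has the near-identical copy Hbb-bt, so its level is uncertain.

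No gene of the Treg program passed the genotype test. Foxp3 was at 574, 178, 423 and 350 CPM in brLN of Aire-DTR mice 4, 7, 8 and 36, and at 525, 416 and 715 CPM in WT mice 1, 6 and 97. Its log2 difference in brLN was -0.84 (SE 0.27, edgeR adjusted p = 0.280), with the groups overlapping. Without Aire-DTR mouse 4 it was -1.19 with an edgeR adjusted p of 0.0210. In udLN, Foxp3 was at 320, 480, 701 and 858 CPM in Aire-DTR mice 4, 7, 8 and 36 and at 420, 642 and 220 CPM in WT mice 1, 6 and 97, and its log2 difference there was -0.22 (SE 0.46, edgeR adjusted p = 0.986). The Treg identity list had 11 members tested in brLN, of which 0 passed in either direction, with a median log2 difference of -0.17 beside 0.01 over all genes tested. Of 11 genes examined in each comparison (Foxp3, Il2ra, Ccr7, Ikzf2, Ctla4, Tnfrsf18, Izumo1r, Il7r, Tcf7, Klf2 and S1pr1), 0 passed in brLN, with log2 differences between -0.84 and 1.00.

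Summing both nodes let all 7 mice enter, 4 Aire-DTR against 3 WT. Of 1774 genes, 2 passed (0.113%) and 84 had an unadjusted p below 0.05, and both that passed were V segments. The next named gene was Hsp90b1, an endoplasmic reticulum chaperone, for which the edgeR estimate on the log2 scale was -1.20 (SE 0.29, adjusted p = 0.0871). Over the 11 examined genes the differences lay between -0.43 for Tnfrsf18 and 0.57 for Il7r, and the smallest edgeR adjusted p was 0.999. The list of the interleukin-2 receptor and STAT5 had 0 of 12 tested members past the threshold, with a median of -0.20, and the resting and naive list 0 of 15, with a median of 0.07, beside 0.01 over all genes.

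**Figure D4:**
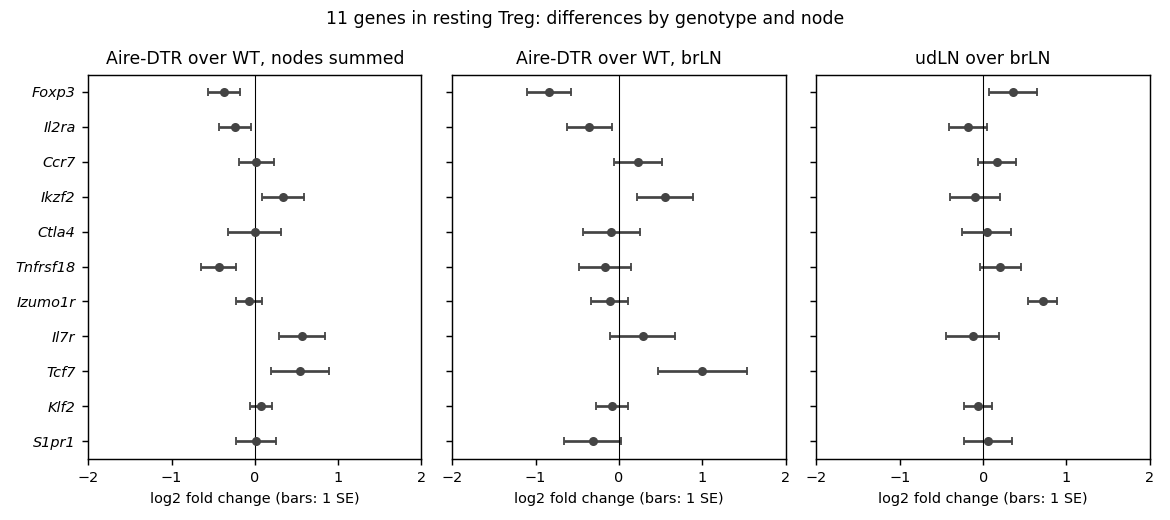
Log2 fold change with 1 SE (edgeR) of 11 genes in resting Treg for Aire-DTR over WT with nodes summed (left), Aire-DTR over WT in brLN (middle) and udLN over brLN within mice (right); Tcf7 was not among the genes tested between nodes. No gene passed the adjusted threshold in any of the 3, and Izumo1r between nodes stood farthest from 0 in units of its SE.

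The nodes were compared within mice, with mouse as a block, in Aire-DTR mice 4, 7 and 36 and WT mouse 1. Of 1003 genes, 3 passed (0.299%), 2 higher and 1 lower in udLN, and 60 had an unadjusted p below 0.05. DESeq2 called 1, a V segment. Again 2 of the 3 were V segments, with UMIs in 22 and 28 cells, and the third was Hbb-bs (log2 difference 2.88, SE 0.31, edgeR adjusted p = 4.8e-06). Aire-DTR mouse 36 had 4022 CPM in udLN and 514 CPM in brLN. The other 3 mice had 0 CPM in udLN and 0 to 20.5 CPM in brLN. Of the 225 UMIs of Hbb-bs in udLN of mouse 36, 187 were in 1 cell (83.1%) and 8 in the next highest. Without that cell the udLN value of mouse 36 was 710 CPM. With cells that had a UMI of these 3 B cell and 2 CD8 genes removed, which takes this cell out, and over the 3 mice that then had enough cells, the log2 difference was 0.19 (edgeR adjusted p = 1.00).

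Izumo1r (chr9:14885814-14903949) was higher in udLN than in brLN in each mouse, but did not pass the test. In resting Treg it was at 989, 774, 1401 and 1162 CPM in udLN of Aire-DTR mice 4, 7, 8 and 36, against 616, 632, 588 and 712 CPM in their brLN. WT mice 1, 6 and 97 had 1144, 612 and 2195 CPM in udLN, against 525, 541 and 999 CPM in brLN. It was thus higher in udLN in 7 of 7 mice, 3 of them with under 10 resting Treg in a node. In the test over the 4 mice with enough cells its log2 difference was 0.71 (SE 0.17), which did not pass (edgeR adjusted p = 0.104). Without Aire-DTR mouse 7 it was 0.82 with an edgeR adjusted p of 0.0154. In naive cells Izumo1r was higher in udLN in 4 of 7 mice. The difference of the node effects between the cell types was 0.44 (SE 0.23, edgeR adjusted p = 0.976).

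**Figure D5:**
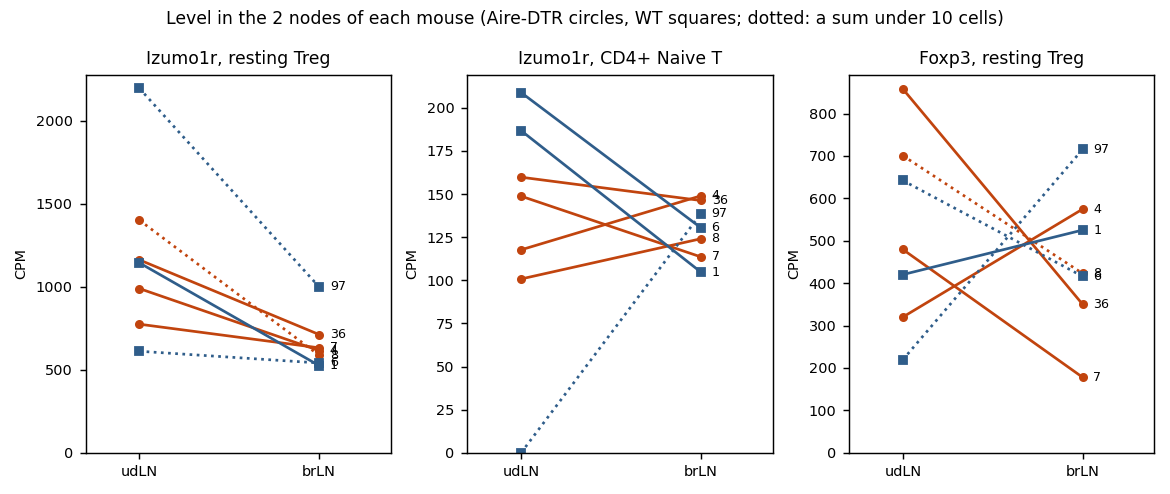
CPM of Izumo1r in resting Treg (left) and naive CD4 T cells (middle) and of Foxp3 in resting Treg (right) in udLN and brLN, with a line for each mouse; circles are Aire-DTR, squares WT, numbers name the mice and dotted lines have a sum of under 10 cells. Izumo1r was higher in udLN in 7 of 7 mice in resting Treg and in 4 of 7 in naive cells, and the lines of Foxp3 crossed.

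Ifit1, an interferon-induced antiviral gene, was the next named gene between nodes. It was at 184, 74, 0 and 232 CPM in udLN of Aire-DTR mice 4, 7, 8 and 36 and at 117, 0 and 0 CPM in udLN of WT mice 1, 6 and 97. In brLN these mice had 41, 18, 0 and 0 CPM (Aire-DTR 4, 7, 8 and 36) and 51, 0 and 204 CPM (WT 1, 6 and 97). The log2 difference over 4 mice was 2.53 (SE 0.82, edgeR adjusted p = 0.769), and the UMIs behind it were few, at most 19 in a sum. Of 7 tested genes of the interferon list 0 passed, with a median log2 difference of 0.30 beside 0.00 over all genes. Foxp3, Il2ra and Ccr7 had node differences of 0.36 (SE 0.29), -0.19 (SE 0.23) and 0.17 (SE 0.23), with edgeR adjusted p of 0.961, 0.985 and 0.985.

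Whether the genotype effect differed between nodes was tested as an interaction in the same 4 mice. Of 1347 genes 0 passed (0.0%) with edgeR, 54 having an unadjusted p below 0.05, and DESeq2 called 0, with 4 below 0.05. The named genes of smallest p were Hmgb2, Ly6a (Sca-1), Ifi208 and Arpc5l, with log2 interactions of 3.34, 2.19, 3.68 and 2.52 and edgeR adjusted p of 0.772, 0.772, 0.772 and 0.775. Of the 11 tested genes of the interferon list 9 were positive, with a median log2 interaction of 1.82 beside 0.0045 over all genes. By genotype the list's median was 1.08 in udLN, with 8 of 9 tested genes positive, and -0.43 in brLN, with 2 of 11 positive. It is 1 of 26 lists, and no test was made of the list as a whole. The interaction and the udLN comparison have WT mouse 1 as their one WT mouse.

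Whether resting Treg responded unlike naive cells was tested as a difference of differences. For genotype in brLN, 5 of 2683 genes passed (0.186%), all V segments of the T cell receptor, and 119 had an unadjusted p below 0.05. For node, 3 of 3637 genes passed (0.0825%), 2 of them V segments and the third Hbb-bs (log2 2.19, SE 0.31, edgeR adjusted p = 2.3e-07), and the sum of mouse 36 in udLN again held the cell with 187 UMIs. DESeq2 called 0 and 1 in these comparisons. Foxp3, Il2ra and Ccr7 passed in neither. Naive cells held only 26 UMIs of Foxp3 and 28 of Il2ra in all, so for these genes the comparisons cannot decide whether the responses differed. The SE on the log2 scale was 1.01 for genotype and 0.85 for node for Foxp3, and 0.66 and 0.73 for Il2ra. For Ccr7 the log2 difference was 0.17 (SE 0.28) for genotype and 0.065 (SE 0.23) for node.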

How the data were processed

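The files hold UMI counts per gene and cell (14125 genes) of lymph node cells from 7 mice, deposited by the authors as a raw count matrix with tables of each cell's mouse, node, genotype, phenotype and cell type. The tools used, per the submitters' processing notes, were Seurat, Scanpy 1.7.0, bustools 0.40.0 and kallisto 0.46.1, and the build was GRCm38. The sources used here do not give how cells were filtered, hashtags assigned or doublets treated. The labels' protocol names a sort of CD45+ CD3+ cells and the series design one of CD45+ cells. Uterine cells and the authors' processed-value matrices were not used here, and Il2 is not analysed here.

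Rows with identical counts were counted once. The 6 wells share 4 to 32 barcodes per pair otherwise, with different counts. No doublet caller was run. As an alternative, cells with a UMI of Cd79a, Cd79b, Ms4a1, Cd8a or Cd8b1 were removed from each cluster compared, 51 of them resting Treg. This leaves cells with UMIs of other B cell genes such as Ighm. Distinct cells numbered 1009 in pool 1, 2249 in pool 2 and 4042 in pool LN, with 22833288 UMIs in all.

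Counts were summed per mouse and node (at least 10 cells). After filterByExpr and TMM scaling, edgeR's quasi-likelihood test was used at a Benjamini-Hochberg adjusted p of 0.05 over all genes tested. Genotype fits had pool as a term. Node and interaction fits had mouse as a block, and the comparison with naive cells had mouse, or mouse and cell type, as a block. Each SE was obtained by dividing the absolute log2 difference by the root of F. Shares (at least 20 cells in the denominator) were compared by exact two-sided permutation of mice, or of signs within mice, and adjusted over 6 comparisons. The permutation moved mice across pools. Intervals and zero limits cover counting error only. Alternatives changed the test, filter, cell minimum, cell set, pool term, summing of nodes, fold, added CPM, depth and the mice included.

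Genes named were those past the threshold (up to 10 in each direction), the 5 smallest p where fewer than 5 passed, 11 genes examined in each test, and, in the descriptions, up to 10 in each direction at 100 CPM or more with list members. V segments and predicted genes were counted only, and some genes are not reported here. The members, the 26 gene lists and the rules were chosen with earlier results of these data known. The fitting scripts were tested on simulated data. Coordinates are GENCODE's for GRCm38. R 4.3.3, edgeR 4.0.16, DESeq2 1.42.0 and SciPy 1.17.1 were used.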

Additional observations from a re-analysis of the deposited data

Results flagged for a closer look

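Among 18 groups of 4 mice or samples examined for 1 sample far from the others, 2 were picked out, where chance picks out about 1 in 20. Resting cells were 23.5% of the Treg in udLN of Aire-DTR mouse 8, a sample of 17 Treg, against 60.0% to 66.7% in the other 3 Aire-DTR mice. Il2ra was at 799 CPM in the resting Treg of the same mouse, against 310 to 380 CPM in the other 3 Aire-DTR mice. That value comes from 18 cells. WT mouse 6, loaded in the same pool, had the highest Il2ra level of the WT mice, and the pool's part was not tested.

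In 3 results the response of resting Treg differed from that of naive CD4 T cells by a test of the difference itself (edgeR). For genotype in brLN these were 5 V segments of the T cell receptor, with UMIs in 9 to 31 resting Treg each. For node they were 2 V segments, with UMIs in 22 and 28 resting Treg, and Hbb-bs, with a log2 difference of 2.19, of which 187 UMIs lay in 1 cell.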

How the results depend on the processing

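No paired analysis was possible because the replicate numbers in the labels name wells in which the mice were mixed, and this holds only for pairing by those numbers. The comparisons of nodes are paired by mouse, from the deposited cell table. Sums in these fits held 12 to 40 cells, and WT mouse 1 was the one WT mouse with enough cells in udLN. The causes of the changes below were not tested.

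DESeq2 called 0 genes between genotypes in brLN and in udLN, 1 between nodes, and 0 and 1 in the comparisons with naive cells for genotype and node. With sums of at least 5 cells, a choice made after seeing the data, 0, 0 and 1 genes passed for genotype in brLN, in udLN and against naive cells. With no pool term 0 passed in brLN and 3 in udLN, and with both nodes summed 2. In udLN 0 passed with no filter on low counts and 0 with both nodes in 1 fit. With cells that had a UMI of Cd79a, Cd79b, Ms4a1, Cd8a or Cd8b1 (B or CD8 UMIs below) removed, 1 passed between nodes, 1 in the interaction, and 2 and 1 against naive cells for genotype and node. For genotype in brLN 5 passed without those cells, 4 of them V segments and 1 Igfbp4, and 3 of the 5 also passed in the main fit. With rows as deposited, also added after seeing the data, 6 passed for node against naive cells. Igfbp4 was among these 6, and it also passed for node against naive cells in cells of the CD4+ Treg class and without Aire-DTR mouse 4. Leaving out 1 mouse gave 4 to 7 genes in brLN where 2 WT mice remained (4 without Aire-DTR mouse 4). The genes changed too: 4 of the 7 without Aire-DTR mouse 36, and 3 of the 4 without Aire-DTR mouse 4, also passed in the main fit. For genotype against naive cells leaving out 1 mouse gave 3 to 6 where 2 WT mice remained. Without WT mouse 1 or 97 these 2 genotype comparisons keep 1 WT mouse, and no count is given. Between nodes leaving out 1 mouse gave 2 to 5 (5 without Aire-DTR mouse 7), and for node against naive cells 3 to 5. Leaving out a mouse with too few cells to be in a fit repeats the main fit. In udLN, leaving out 1 mouse cannot show whether the genotype result is stable. The fits that could be made there left out a mouse not in the fit, or Aire-DTR mouse 36, alone in its pool. The udLN and interaction fits have WT mouse 1 as their one WT mouse, so no leave-out count is given for them. For udLN genotype no value could be had at 20 cells per sum, without B or CD8 UMIs, or without mouse 1, 4 or 7, nor for the interaction at 20 cells per sum or without mouse 1.

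Differences of shares, none of which passed, changed sign as follows, in percentage points. For the share of CD4 T cells, the difference was 0.414 in brLN and -1.19 over both nodes summed. In brLN it was -1.28 to 2.04 with 1 mouse left out, negative without WT mouse 6 (-0.961) or Aire-DTR mouse 8 (-1.28). The udLN share of CD4 T cells was -9.14 with no minimum of cells (against -2.27) and -5.93 to 1.401 with 1 mouse left out, 1.401 without WT mouse 6. The resting share of Treg differed by -10.1 in brLN, 12.6 in udLN and -5.815 between nodes. Resting Treg as a share of all cells, which is another measure, differed by 0.437 in brLN, -1.05 in udLN and 1.27 between nodes. The difference of the resting share of Treg was -6.92 in udLN with no minimum of cells, and -8.13 over both nodes summed. Between nodes the difference of that share was -10.5 to 0.0894 with 1 mouse left out, 0.0894 without WT mouse 1.

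Against naive cells 53 genes passed at 3-fold, 424 at 1.5-fold and 390 with 1 CPM added. Against Act. Treg 107 passed at 3-fold, 579 at 1.5-fold, 203 with cells thinned, 553 in brLN alone and 170 with at least 50 UMIs.

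Hbb-bs in brLN was -1.29 to 2.19 with 1 mouse left out, 2.19 without Aire-DTR mouse 36, 2.17 without WT mouse 97 and 0.62 with nodes summed, and its node difference from naive cells was -0.41 without cells that had a B or CD8 UMI. Ccr7 in brLN was -0.017 with sums of at least 5 cells and -0.33 to 0.71 with 1 mouse left out, -0.32 without Aire-DTR mouse 36 and -0.33 without WT mouse 97. Between nodes Ccr7 was -0.0080 in cells of the Treg class, -0.0085 with sums of at least 5 cells, -0.061 without B or CD8 UMIs and -0.066 to 0.37 with 1 mouse left out, the lowest without Aire-DTR mouse 4. Between nodes Foxp3 was -0.17 to 0.79 with 1 mouse left out, -0.17 without Aire-DTR mouse 36.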
